A study of Mus musculus with 4 samples.

Results

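The 7 genes described here encode muscle ubiquitin ligases, FoxO transcription factors and a muscle caveola protein, and were chosen by name from the 22574 genes measured by single-nucleus RNA sequencing in neonatal mouse hearts. They are Fbxo32 (atrogin-1), Trim63 (MuRF1), Trim55 (MuRF2), Trim54 (MuRF3), Foxo1, Foxo3 and Murc, which is listed under its current symbol Cavin4. All 7 were detected. The study asked how the transcription factor Nrf1, encoded by Nfe2l1, acts in cardiomyocytes after neonatal infarction. There were 4 libraries, with 1 library for each combination of genotype and surgery. Pups of Nrf1fl/fl:aMHC-Cre or Nrf1fl/fl genotype had MI (ligation of the left anterior descending artery) or Sham surgery (the chest opened with no ligation) at postnatal day 3, and tissue was taken the day after. The strain background is given as C57BL/6. The aMHC promoter (alpha myosin heavy chain) directs the Cre recombinase to cardiomyocytes, and both genotypes carry the loxP alleles. Each library pooled the tissue below the ligation plane of 4 to 6 hearts of a genotype. The libraries labelled WT-Sham, KO-Sham, WT-MI and KO-MI are called by those names throughout.

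In muscle, ubiquitin ligases of this kind mark contractile and other proteins for breakdown by the proteasome. Atrogin-1 is the F-box subunit of an SCF ligase complex, and the 3 MuRF proteins are RING ligases that bind to the sarcomere and to microtubules. Unphosphorylated Foxo1 and Foxo3 enter the nucleus and activate genes of protein breakdown, autophagy and growth arrest, atrogin-1 and MuRF1 among them, while signalling from insulin and growth factors through Akt keeps them in the cytoplasm. Murc, a cavin, sits at the caveolae of muscle cells.

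The stretches of 250 bases before the start of Trim63, Trim54 and Murc are shown, chosen after their values after MI, described below, were seen. They are written 5′ to 3′ on the strand of the gene, from RefSeq on GRCm38.p6. Capitals mark matches to the FoxO core motif GTAAACA or to an antioxidant response element core, TGACNNNGC or TGAGNNNGC, searched on both strands. The RefSeq start of Trim54 lies upstream of the GENCODE start given below.
Trim63, chr4:134314870-134315119, plus strand: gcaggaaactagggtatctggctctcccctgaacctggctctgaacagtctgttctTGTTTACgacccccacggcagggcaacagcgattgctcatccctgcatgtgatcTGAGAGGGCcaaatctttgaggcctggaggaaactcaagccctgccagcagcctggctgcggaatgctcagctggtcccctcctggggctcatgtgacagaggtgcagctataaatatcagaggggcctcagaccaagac
Trim54, chr5:31116362-31116611, plus strand: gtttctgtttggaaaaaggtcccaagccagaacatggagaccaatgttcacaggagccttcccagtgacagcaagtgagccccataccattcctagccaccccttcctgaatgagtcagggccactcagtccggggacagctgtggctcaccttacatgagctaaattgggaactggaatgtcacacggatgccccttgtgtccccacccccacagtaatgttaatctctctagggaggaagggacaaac
Murc (Cavin4), chr4:48663264-48663513, plus strand: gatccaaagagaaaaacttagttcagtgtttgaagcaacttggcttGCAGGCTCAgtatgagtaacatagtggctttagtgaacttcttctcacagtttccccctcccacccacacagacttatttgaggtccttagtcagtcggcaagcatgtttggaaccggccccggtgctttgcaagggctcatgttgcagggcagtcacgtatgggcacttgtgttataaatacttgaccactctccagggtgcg

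Trim63 held the FoxO core at position -194 from the gene start, the first run of capitals, and Murc and Trim63 each held an antioxidant response element core, at -204 and -140. The Trim54 stretch held neither. Of 32851 windows of this length, 3.17% held the FoxO core and 23.0% held the other motif. Windows were present for Trim63, Trim54, Foxo1, Foxo3 and Murc, that is 5 of the 7 genes, and those of Foxo1 and Foxo3 held neither motif. No window was present for Fbxo32 or Trim55. These matches describe letters only. The stretches shown were chosen with the MI values known, so their matches cannot bear on those values.

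The deposited nuclei were 8585 cardiomyocyte nuclei in the populations CM1, CM2, CM4 and CM5, and 9 barcodes occurred in more than 1 library. The paper merged its CM1 and CM3 populations. It describes CM2 as high in cell-cycle genes, CM4 as regenerative, and CM5 as answering injury with apoptosis and hypertrophy. CM1 held 1098 nuclei in WT-Sham, 2619 in KO-Sham, 1415 in WT-MI and 1308 in KO-MI, with 4151418 to 7335268 UMIs (counts of RNA molecules) per library, and is the main population below. The 8 cardiomyocyte markers were all detected in each library and made up 33686 to 36640 counts per 1000000 UMIs in CM1. KO-Sham was the shallowest library, with a median of 2632 UMIs per CM1 nucleus against 3749 to 4044 in the others, and its median share of mitochondrial UMIs was 8.78% against 5.05% to 6.13%. Nfe2l1, the targeted gene, was at 61.4 CPM (counts per 1000000 UMIs of the sum) in WT-Sham, 53.3 in KO-Sham, 44.1 in WT-MI and 57.7 in KO-MI. In CM1 it was thus higher in the library labelled KO-MI than in WT-MI, by 0.39 on the log2 scale (interval 0.14 to 0.63). Over all nuclei this ratio was 0.22 (0.02 to 0.43), and both values go against the label. It was 0.06 (-0.41 to 0.52) in CM5 and -0.95 (-2.11 to 0.12) in CM4, with intervals that included 0. KO-Sham over WT-Sham was at -0.20 (-0.44 to 0.03) in CM1, -1.14 (-2.02 to -0.28) in CM5 and -0.30 (-0.51 to -0.09) over all nuclei, in the direction of the label. The deleted exon is not given in the sources used here, so these counts may lie outside the deleted part and check little. Whether the MI libraries carry the right genotype label was not tested. The paper measured Nrf1 by qPCR in knockout and control hearts at a later age, not in these libraries. With 1 library per group there are no replicates, and no test was made. Intervals are exact 95% limits that cover counting error only, and the spread between hearts is not measured.

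Atrogin-1 and MuRF3 showed the largest differences between MI and Sham surgery among the 7 genes in CM1, in opposite directions and in both genotype labels. Fbxo32 was 2.88-fold lower in WT-MI than in WT-Sham and 2.10-fold lower in KO-MI than in KO-Sham. Trim54 was 2.62-fold higher and 3.40-fold higher in the same comparisons. Trim63, Trim55, both FoxO factors and Murc differed by less than 1.5-fold. Of the 7 genes, 1 was higher and 1 lower past 1.5-fold in WT-MI over WT-Sham, where 10.4% of the 12738 genes with 20 or more UMIs were higher and 14.6% lower. The same count held in KO-MI over KO-Sham, where 12.1% of 13152 genes were higher and 12.8% lower. The count of members was thus near the background share. The median log2 ratio of the members was -0.11 and -0.01, beside -0.07 and 0.03 for all genes tested.

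**Figure D1:**
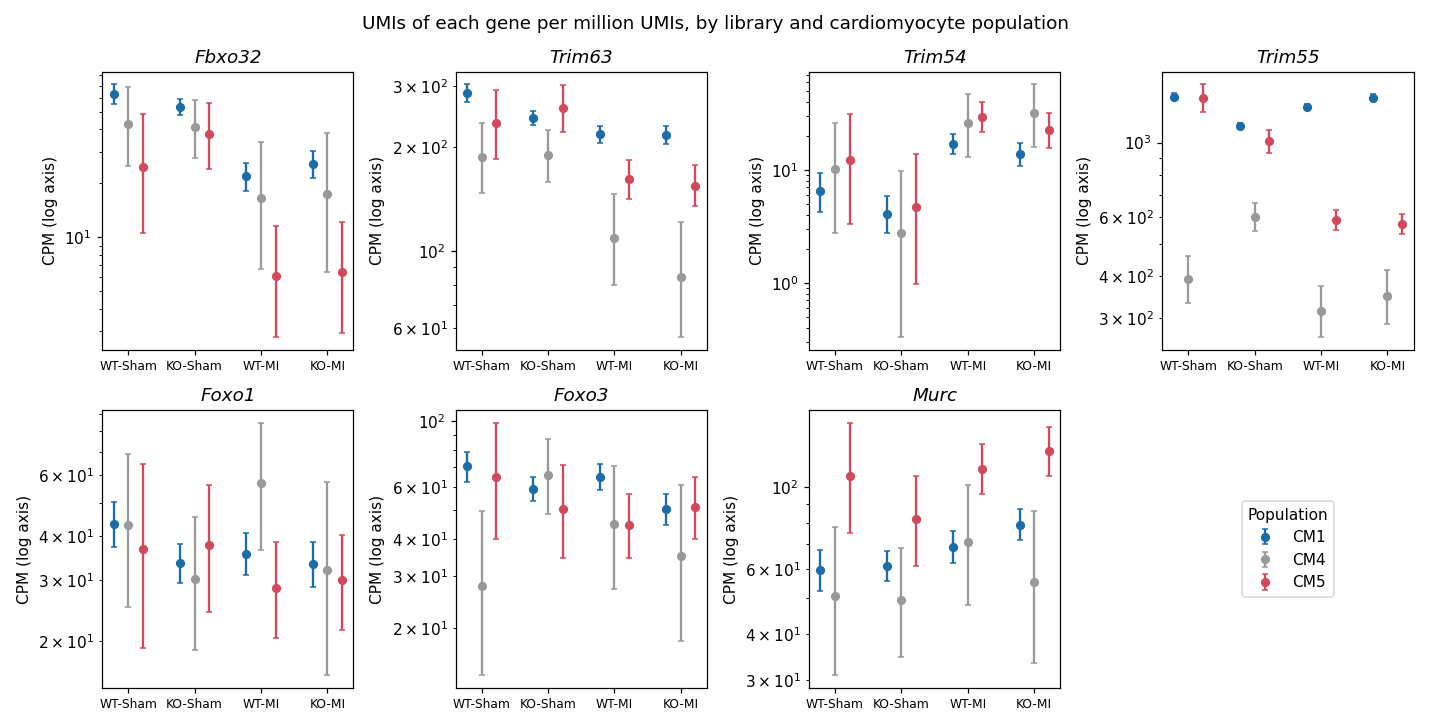
CPM of each gene on a log axis in the 4 libraries, with CM1, CM4 and CM5 as separate points and exact 95% Poisson intervals as bars. Fbxo32 is lower and Trim54 higher in both MI libraries in CM1, and Trim55 is lower in both MI libraries than in both Sham libraries in CM5.

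Fbxo32, on chromosome 15 (58175879 to 58214932, minus strand, GRCm38), was at 63.1 CPM in WT-Sham (interval 55.7 to 71.2), 53.6 in KO-Sham (48.4 to 59.1), 21.9 in WT-MI (18.3 to 26.1) and 25.6 in KO-MI (21.4 to 30.2) in CM1. Both MI libraries lay below both Sham libraries with no overlap of intervals, while the pair of MI libraries overlapped. The log2 ratio was -1.53 (-1.84 to -1.22) for WT-MI over WT-Sham and -1.07 (-1.36 to -0.78) for KO-MI over KO-Sham. A UMI of Fbxo32 was found in 19.5% of CM1 nuclei in WT-Sham, 13.1% in KO-Sham, 8.06% in WT-MI and 8.94% in KO-MI. After thinning each nucleus to 1000 UMIs, which removes differences in depth, these shares were 6.11%, 4.58%, 2.05% and 2.37%. Only cardiomyocyte nuclei were analysed, so no cell type that lacks these genes was at hand to measure free RNA. Fbxo32 overlaps the gene Gm15943 on the other strand, which is counted as a gene of its own in the matrix. The use of strand in the counting is not stated, and the part of this overlap in the Fbxo32 counts was not tested.

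The difference was also seen in CM5, and for the WT label in CM4, where counts were low. In CM5, Fbxo32 was at 24.6 CPM in WT-Sham, 37.8 in KO-Sham, 6.09 in WT-MI and 6.41 in KO-MI, from 8, 24, 9 and 9 UMIs. The log2 ratios were -2.01 (-3.56 to -0.44) and -2.56 (-3.85 to -1.40). In CM4 they were -1.37 (-2.88 to -0.03) and -1.23 (-2.79 to 0.05), the latter with an interval that included 0. In CM2, Fbxo32 had 0 UMIs in WT-Sham, with an interval that reached 32.8 CPM. It had 12, 5 and 8 UMIs in KO-Sham, WT-MI and KO-MI, and no difference was detectable at this depth. Within each of the MI libraries, CM5 had less Fbxo32 than CM1, 3.59-fold lower in WT-MI and 3.99-fold lower in KO-MI. The populations were defined from expression in the same nuclei, so such comparisons of populations are descriptions.

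MuRF1 differed in the same direction as atrogin-1 but by less. Trim63 (chromosome 4, 134315120 to 134329629, plus strand), whose upstream stretch is shown above, was at 286 CPM in WT-Sham (270 to 302), 242 in KO-Sham (231 to 254), 217 in WT-MI (206 to 230) and 217 in KO-MI (204 to 230) in CM1. WT-Sham was highest, and the MI libraries were alike within counting error. The log2 ratio of MI over Sham was -0.39 (-0.51 to -0.28) for the WT label and -0.16 (-0.27 to -0.05) for the KO label. In CM5 the levels were 234, 258, 161 and 155 CPM in WT-Sham, KO-Sham, WT-MI and KO-MI, and the log2 ratios were -0.54 (-0.92 to -0.14) and -0.74 (-1.04 to -0.44). In CM4 the levels were 187, 189, 109 and 84.4 CPM, and the ratios were -0.78 (-1.34 to -0.23) and -1.16 (-1.79 to -0.58). All 6 of these ratios, in CM1, CM4 and CM5, lay below 0 with their intervals. The CM1 interval for the KO label included 0 after thinning (-0.39 to 0.03), with under 5% mitochondrial UMIs (-0.45 to 0.11) and without myeloid markers (-0.29 to 0.02).

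MuRF3 was the gene of this family with the fewest counts and the only member higher past 1.5-fold after MI in CM1. Trim54 (chromosome 5, 31116712 to 31137630, plus strand) was at 6.50 CPM in WT-Sham (4.29 to 9.46), 4.09 in KO-Sham (2.76 to 5.84), 17.1 in WT-MI (13.9 to 20.8) and 13.9 in KO-MI (10.9 to 17.5) in CM1, from 27, 30, 99 and 74 UMIs. The MI libraries lay above the Sham libraries with no overlap of intervals. The log2 ratios were 1.39 (0.77 to 2.06) and 1.77 (1.14 to 2.43). In nuclei with under 5% mitochondrial UMIs, of which KO-Sham had 130, the KO label ratio was 0.55 (-0.79 to 2.24) and no longer past 1.5-fold. The share of CM1 nuclei with a UMI was 2.19%, 1.11%, 6.64% and 5.35% in WT-Sham, KO-Sham, WT-MI and KO-MI, and 0.456%, 0.382%, 2.05% and 1.15% after thinning. In CM5 it was at 12.3, 4.72, 29.8 and 22.8 CPM, from 4, 3, 44 and 32 UMIs. The CM5 log2 ratio was 1.28 (-0.18 to 3.21) for the WT label and 2.27 (0.59 to 4.62) for the KO label, so the WT ratio was not distinguishable from 0 at this depth. Transcripts of Trim54 and Trim63 share an exact run of at most 28 bases, and the longest run that Trim55 shares with either is 17. Trim54 also overlaps Gm15469 on the other strand.

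MuRF2 had the highest counts of the members, and its MI difference varied between populations. Trim55 (chromosome 3, 19644474 to 19692421, plus strand) was at 1371 CPM in WT-Sham (1336 to 1407), 1122 in KO-Sham (1098 to 1147), 1277 in WT-MI (1248 to 1306) and 1359 in KO-MI (1328 to 1391) in CM1. KO-Sham was lowest, and WT-Sham and KO-MI overlapped. The CM1 ratio of MI over Sham was slightly negative for the WT label, at -0.10 (-0.15 to -0.05) on the log2 scale, and positive for the KO label, at 0.28 (0.23 to 0.32). With TMM scaling the WT value was -0.03 (-0.08 to 0.02), and its direction was then not determined. Trim55 overlaps BC002189 on its own strand, and the part of that gene in the Trim55 counts was not tested.

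In CM5, Trim55 was at 1356 CPM in WT-Sham (1232 to 1489) and 1010 in KO-Sham (934 to 1092), but at 588 in WT-MI (550 to 629) and 572 in KO-MI (533 to 613). The log2 ratios of MI over Sham were -1.21 (-1.37 to -1.04) and -0.82 (-0.97 to -0.67). CM5 and CM1 had about the same Trim55 level in WT-Sham, with a log2 ratio of -0.02 for CM5 over CM1, and -0.15 in KO-Sham. In the MI libraries this ratio was -1.12 and -1.25. CM4 had the least Trim55 in each library, at 392, 602, 316 and 349 CPM in WT-Sham, KO-Sham, WT-MI and KO-MI. CM4 nuclei also had the fewest UMIs, with medians of 1716 to 2394, and the highest mitochondrial shares, 9.47% to 14.6%, and the part of this in their Trim55 level was not tested. The few CM2 nuclei, 27 to 124 per library, were at 1155, 1024, 1352 and 1196 CPM.

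**Figure D2:**
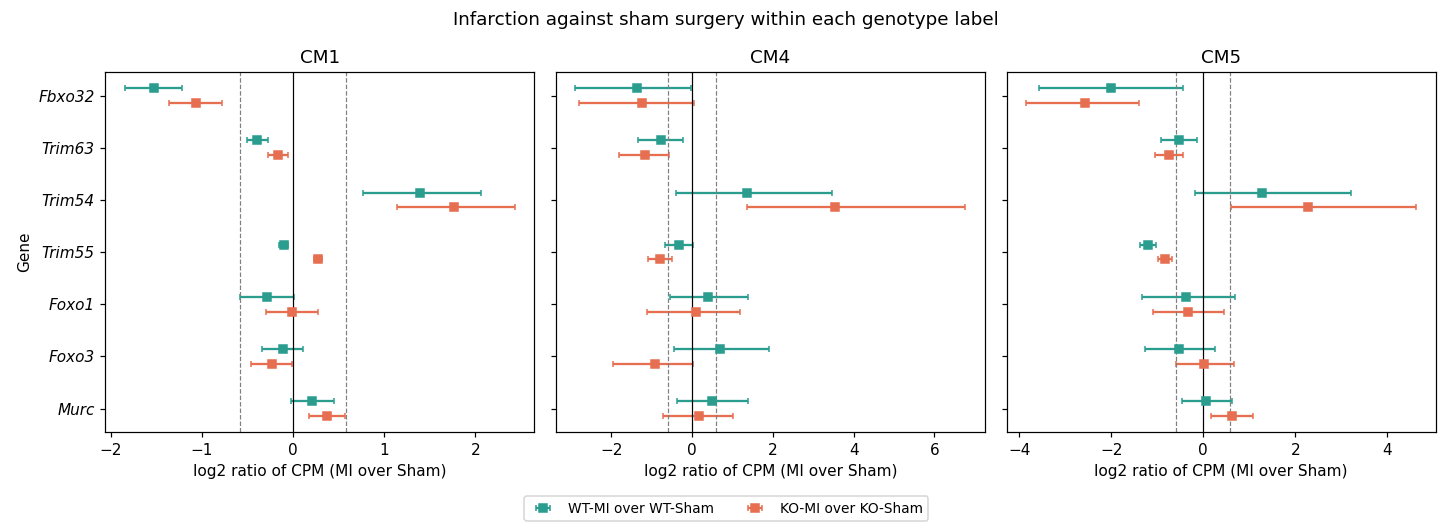
log2 ratio of CPM, MI over Sham, for each gene in CM1, CM4 and CM5, with the WT and KO labels as separate points, exact 95% counting intervals as bars and dashed lines at 1.5-fold. Trim55 lies near 0 in CM1 and at -1.21 and -0.82 in CM5, and Fbxo32 lies below and Trim54 above 0 in all 3 populations.

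The lower Trim55 level of CM5 after MI was spread over nuclei. Thinned to 1000 UMIs, 33.7% of the 89 CM5 nuclei of WT-Sham and 41.5% of the 234 of KO-Sham had no Trim55 UMI, against 58.4% of 339 in WT-MI and 62.3% of 355 in KO-MI. The share of CM5 nuclei with 4 or more Trim55 UMIs was 8.99%, 2.99%, 0.885% and 0.563% in the same order. In CM1 the share with no UMI was 29.1%, 35.8%, 31.2% and 28.7% in WT-Sham, KO-Sham, WT-MI and KO-MI. Without thinning, 97.8%, 87.2%, 77.3% and 69.9% of CM5 nuclei had a Trim55 UMI in that order. CM5 was itself larger after MI, with 6.33% and 7.03% of nuclei in the Sham libraries and 16.9% and 19.2% in the MI libraries. The 8 cardiomyocyte markers summed to 24127 and 24007 CPM in CM5 of the MI libraries against 35804 and 36420 in Sham, and the part of this shift in the Trim55 values was not tested.

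**Figure D3:**
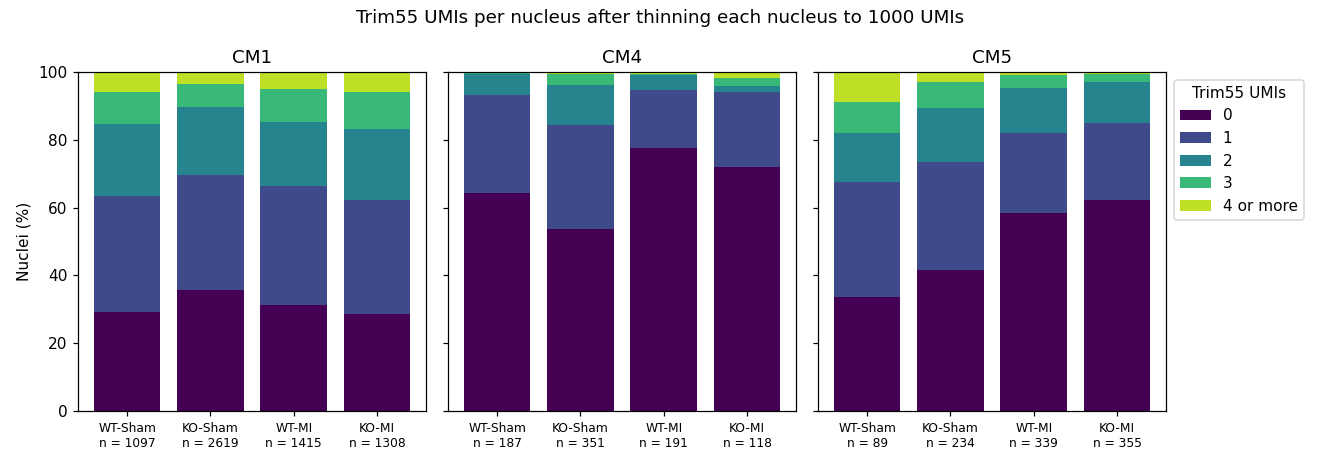
Percent of nuclei with 0, 1, 2, 3 or 4 or more Trim55 UMIs after thinning each nucleus to 1000 UMIs, by library in CM1, CM4 and CM5, with the number of nuclei under each bar. The share at 0 is 58.4% and 62.3% in the MI libraries of CM5 and 33.7% and 41.5% in its Sham libraries.

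The FoxO factors differed little with surgery in CM1. Foxo1 (chromosome 3, 52268336 to 52353221, plus strand) was at 43.4 CPM in WT-Sham (37.3 to 50.2), 33.5 in KO-Sham (29.5 to 38.0), 35.7 in WT-MI (31.0 to 40.9) and 33.3 in KO-MI (28.5 to 38.5). Its log2 ratio of MI over Sham was -0.28 (-0.58 to 0.02) for the WT label and -0.01 (-0.30 to 0.27) for the KO label, both with intervals that included 0. In nuclei with under 5% mitochondrial UMIs the WT value was -0.62 (-1.05 to -0.18), past 1.5-fold, and KO-Sham over WT-Sham was at -1.07 (-2.04 to -0.22). After thinning the WT value was 0.36 (-0.24 to 0.98), so its direction was not determined. Foxo3 (chromosome 10, 42181841 to 42276755, minus strand) was at 70.3 CPM in WT-Sham (62.5 to 78.9), 59.2 in KO-Sham (53.7 to 65.0), 65.0 in WT-MI (58.6 to 71.9) and 50.4 in KO-MI (44.5 to 56.8). KO-MI was the lowest, though its interval overlapped that of KO-Sham, and the log2 ratios were -0.11 (-0.34 to 0.11) and -0.23 (-0.46 to -0.01). Foxo1 overlaps Gm20402 and Gm38034, 1 of them on its own strand, and Foxo1 and Foxo3 transcripts share an exact run of at most 38 bases. Counts of transcripts carry no information on the phosphorylation or location of these proteins.

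In CM5, Foxo1 was at 36.9, 37.8, 28.4 and 29.9 CPM in WT-Sham, KO-Sham, WT-MI and KO-MI, and Foxo3 at 64.6, 50.4, 44.7 and 51.3. None of the CM5 ratios of MI over Sham had an interval clear of 0 for either gene. In CM4, Foxo3 was at 27.8 CPM in WT-Sham, 65.7 in KO-Sham, 45.1 in WT-MI and 34.9 in KO-MI, from 11, 48, 19 and 12 UMIs. Of the other FoxO genes, Foxo6 was the only one with 20 or more UMIs over both sums in CM1, and its ratios were 0.03 and 0.40.

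Murc was higher after MI for the KO label, and the WT label was not distinguishable from no difference by counting error. In CM1 it was at 59.5 CPM in WT-Sham (52.3 to 67.4), 61.2 in KO-Sham (55.7 to 67.1), 68.8 in WT-MI (62.2 to 75.9) and 79.1 in KO-MI (71.7 to 87.0). The Sham libraries were alike within counting error, and KO-MI lay above both. The log2 ratio of MI over Sham was 0.21 (-0.02 to 0.44) for the WT label and 0.37 (0.17 to 0.57) for the KO label. After thinning these were -0.03 (-0.49 to 0.44) and 0.12 (-0.27 to 0.49). CM5 was at 108, 81.8, 112 and 125 CPM in WT-Sham, KO-Sham, WT-MI and KO-MI, which was above CM1 in each library, by log2 ratios of 0.86, 0.42, 0.71 and 0.66, with an interval that included 0 in KO-Sham. The CM5 ratio of MI over Sham was 0.06 (-0.47 to 0.63) for the WT label and 0.62 (0.16 to 1.09) for the KO label.

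Levels were compared between genes per kilobase of gene span, since reads in introns were counted. Trim55 led in CM1 with 28.6, 23.4, 26.6 and 28.3 CPM per kilobase in WT-Sham, KO-Sham, WT-MI and KO-MI. Trim63 followed with 19.7, 16.7, 15.0 and 14.9, and Murc with 5.96, 6.13, 6.89 and 7.92. Fbxo32 was at 1.62 and 1.37 CPM per kilobase in the Sham libraries but at 0.561 and 0.654 in the MI libraries. Foxo3 ranged from 0.531 to 0.741 and Foxo1 from 0.392 to 0.511 on this scale. Trim54 was the lowest in Sham, at 0.311 and 0.196, and reached 0.816 and 0.665 in MI, above Fbxo32 in WT-MI and about level with it in KO-MI. Per kilobase of exon, Trim54 was at 11.9 and 9.68 in the MI libraries against 3.14 and 3.66 for Fbxo32, so the order of these genes depends on the scale. The assay reads the 3′ end of captured RNA, so a scale per length is approximate.

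Genes known as FoxO targets were more often lower than higher after MI. The list, without the members, held 24 genes. It was chosen with earlier results of these data known, so its counts only describe. In WT-MI over WT-Sham in CM1, 9 of the 23 tested were lower past 1.5-fold and 2 higher, with a median log2 ratio of -0.50, beside 14.6% lower and a median of -0.07 for all genes tested. In KO-MI over KO-Sham, 11 of 24 were lower and 1 higher, with a median of -0.57, beside 12.8% and 0.03. Over all nuclei the KO count was 7, and with TMM scaling it was 14. The Sham library of this comparison, KO-Sham, had more Sod2, Eif4ebp1 and Map1lc3b than WT-Sham, by log2 ratios of 0.74, 0.69 and 0.60; these genes too are named after their values were seen. The MI comparisons share no library, and 7 genes were lower past 1.5-fold in both, 77.8% of the WT list and 63.6% of the KO list. These were Pik3ip1, Ccng2, Txnip, Bcl2l11, Map1lc3b, Sesn3 and Cdkn1b, named here after their values were seen. The same overlap over all genes was not counted, so the shares cannot be read as particular to FoxO targets.

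Pik3ip1, an inhibitor of PI3 kinase, was the lowest target for the WT label, at -1.92 (-2.35 to -1.51) on the log2 scale. Ccng2, which encodes a cyclin linked to growth arrest, was the lowest for the KO label, at -1.68 (-2.72 to -0.76) from 12 and 53 UMIs. Cdkn1a, the cell cycle inhibitor p21, was the highest in both, at 2.50 (1.70 to 3.42) and 1.39 (0.89 to 1.90). Pdk4, a kinase that limits glucose oxidation, was lower for the WT label, at -0.92 (-1.12 to -0.72), and at 0.17 (0.00 to 0.34) for the KO label. With the KO label against the WT label after MI, Pdk4 was the highest target, at 0.69 (0.49 to 0.89), and Gabarapl1, an autophagy gene, the lowest, at -0.99 (-1.85 to -0.17) from 19 and 41 UMIs.

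**Figure D4:**
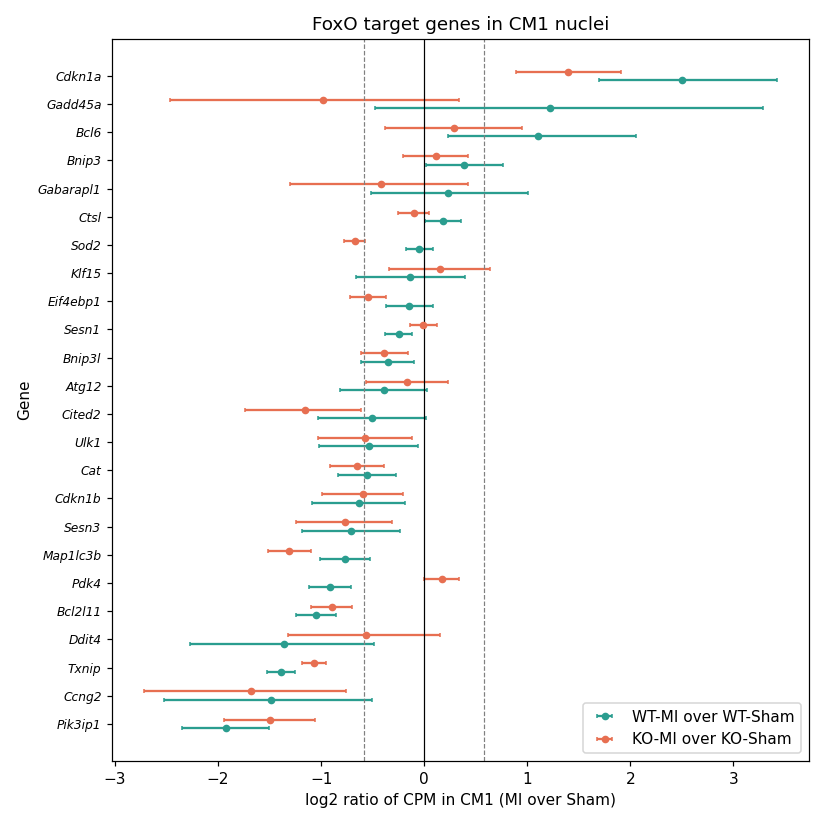
log2 ratio of CPM in CM1, MI over Sham, for the 24 FoxO target genes, ordered by the WT label, with both labels as separate points, exact 95% counting intervals as bars and dashed lines at 1.5-fold. Most points lie below 0, Pik3ip1 lowest for the WT label, and Cdkn1a lies at 2.50 and 1.39.

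The counts of the lists that follow are read against the shares over all genes given above, 10.4% higher and 14.6% lower for the WT label and 12.1% higher and 12.8% lower for the KO label. Of 29 genes of the insulin, PI3 kinase and Akt pathway and FoxO cofactors, 2 were higher and 0 lower past 1.5-fold in each MI comparison, with medians of 0.05 and 0.04. Irs1, an adaptor of the insulin receptor, was the highest for the WT label, at 0.86 (0.66 to 1.06). Pik3cb, a catalytic subunit of PI3 kinase, was the highest for the KO label, at 1.01 (0.57 to 1.46), and its KO-Sham over WT-Sham ratio was -0.80 (-1.29 to -0.32). Among 9 genes that respond to glucocorticoids, which also act on atrogin-1 and MuRF1 in muscle, 3 were higher for the WT label, and 2 higher and 1 lower for the KO label. Fkbp5, an induced co-chaperone of the glucocorticoid receptor, was at 1.21 (0.64 to 1.82) in WT-MI over WT-Sham. Per1, a clock gene, was at 0.91 (0.50 to 1.33) in KO-MI over KO-Sham. Tsc22d3 was the lowest of this list for the WT label, at -0.49 (-0.71 to -0.27). Dusp1 was the lowest for the KO label, at -0.60 (-1.26 to 0.02), so the list went both ways.

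Of 22 other muscle ubiquitin ligase genes tested, 1 was higher past 1.5-fold and 0 lower in each MI comparison, with medians of -0.04 and 0.03. It was Trim72, which encodes a membrane repair protein of muscle, at 1.52 (0.49 to 2.68) from 40 and 10 UMIs and 0.96 (0.12 to 1.82) from 31 and 22. Among 21 genes of ubiquitin and the SCF complex, 0 passed 1.5-fold for the WT label and 3 were lower for the KO label, of which Ubb, a ubiquitin gene, was the lowest at -0.87 (-0.97 to -0.77). Of 11 known partners and substrates of the MuRF proteins, 2 were higher for the WT label, and 1 was higher and 3 lower for the KO label. Myh7, the slow myosin heavy chain, was the highest in both, at 0.70 (0.62 to 0.79) and 1.52 (1.45 to 1.59). Tnni3, cardiac troponin I, was the lowest for the KO label, at -1.04 (-1.08 to -0.995). Of 11 caveola genes, 2 were higher for the WT label, and 1 higher and 1 lower for the KO label. Ehd4, a membrane remodelling ATPase, was at 0.81 (0.70 to 0.93) and 0.86 (0.77 to 0.95).

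Markers of other cell types moved with surgery. The 11 myeloid genes summed to 119 CPM in WT-Sham, 90.8 in KO-Sham, 540 in WT-MI and 267 in KO-MI in CM1, with 10 or 11 of them detected and Cd163 at 0 in both Sham libraries. In the CM1 nuclei with no myeloid UMI, 712, 2054, 207 and 485 in WT-Sham, KO-Sham, WT-MI and KO-MI, the Fbxo32 log2 ratio was -1.42 (-2.21 to -0.71) for the WT label and -0.95 (-1.40 to -0.53) for the KO label. Trim54 was at 1.68 (0.63 to 2.74) and 1.58 (0.78 to 2.38) in those nuclei. The number of FoxO targets lower past 1.5-fold was 8 and 11. The list of skeletal and smooth muscle markers, of which 6 genes were in the matrix, summed to 12.5, 24.5, 101 and 131 CPM in CM1 of WT-Sham, KO-Sham, WT-MI and KO-MI. Most of this was Acta1, skeletal alpha actin, which was 9.74-fold higher in WT-MI and 5.37-fold higher in KO-MI than in Sham. Cnn1, a smooth muscle calponin, was 5.10-fold and 12.7-fold higher. The 5 red blood cell genes summed to 2545, 1891, 3829 and 2025 CPM in CM1 in the same order of libraries. The part of the muscle and red blood cell markers in the results was not tested.

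The KO label was next compared with the WT label within each surgery. After MI, 0 of the 7 genes differed past 1.5-fold in CM1, where 4.54% of 12910 genes were higher and 3.99% lower. After thinning to 1000 UMIs the count was 1, Trim54 at -0.84 (-1.84 to 0.11). Foxo3 was lower in KO-MI than in WT-MI, by a log2 ratio of -0.37 (-0.60 to -0.14). Trim55 was at 0.09 (0.04 to 0.14), Murc at 0.20 (0.00 to 0.40), and Fbxo32 at 0.22 (-0.14 to 0.58). Trim63 was at -0.01 (-0.12 to 0.11), Trim54 at -0.30 (-0.75 to 0.15) and Foxo1 at -0.10 (-0.40 to 0.19), each with an interval that included 0. In CM5 none of the 7 intervals excluded 0. Among the muscle ligases, Klhl40, a muscle Kelch protein, was the lowest in KO-MI over WT-MI in CM1, at -0.65 (-1.34 to 0.02).

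After Sham surgery, 1 of the 7 genes was lower past 1.5-fold and 0 were higher in KO-Sham over WT-Sham in CM1, where 7.85% of 12916 genes were higher and 6.64% lower. This was Trim54, at -0.67 (-1.47 to 0.14) from 30 and 27 UMIs, an interval that included 0. The ratios of Fbxo32, Trim63, Trim55, Foxo1 and Foxo3 ranged from -0.37 to -0.24, and Murc was at 0.04. Trim55 was at -0.29 (-0.34 to -0.24). The median of all genes tested in this comparison was -0.11, and TMM scaling moved it by 0.12, so that Trim55 became -0.17 (-0.22 to -0.12) and Trim63 moved from -0.24 to -0.12. Past 1.5-fold, 6 of 24 FoxO targets were higher and 0 lower in KO-Sham over WT-Sham, and 4 of 21 genes of ubiquitin and the SCF complex were higher and 0 lower. Among genes of the lists that were higher in KO-Sham, Tnni3 was at 0.85 (0.80 to 0.89), Cav1 of caveolae at 0.62 (0.33 to 0.92), Cdkn1a at 1.07 (0.20 to 2.04) and Sgk1, a kinase that phosphorylates FoxO, at 1.02 (0.14 to 1.99). The 7 endothelial markers were all detected in CM1. They summed to 820 CPM in KO-Sham against 449 in WT-Sham, 469 in WT-MI and 534 in KO-MI. Most of this was Fabp4, at 717 CPM in KO-Sham and 375 in WT-Sham. In KO-Sham over WT-Sham, 4 of the 7 were higher past 1.5-fold, and Ptprb was the lowest, at 0.16 (-0.45 to 0.79). The shallower and more mitochondrial KO-Sham library enters this comparison and KO-MI over KO-Sham, and its part in the results cannot be told apart from the genotype. In CM4, Trim55 was higher in KO-Sham than in WT-Sham, at 0.62 (0.35 to 0.89), and Foxo3 at 1.24 (0.27 to 2.33).

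**Figure D5:**
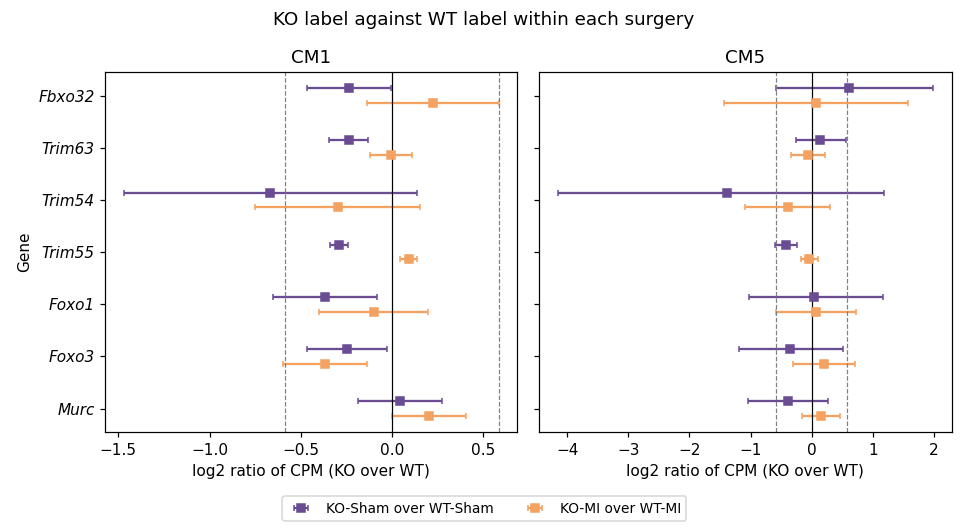
log2 ratio of CPM, KO label over WT label, for each gene in CM1 and CM5, with Sham and MI surgery as separate points, exact 95% counting intervals as bars and dashed lines at 1.5-fold. After MI all CM1 points lie inside the dashed lines, and after Sham only Trim54 lies outside them in CM1.

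The MI ratios of the genotype labels were also set against each other. In CM1 the log2 ratio for the KO label minus that for the WT label was 0.46 (0.04 to 0.87) for Fbxo32, 0.23 (0.08 to 0.39) for Trim63 and 0.38 (0.31 to 0.45) for Trim55. It was 0.37 (-0.49 to 1.24) for Trim54, 0.27 (-0.13 to 0.67) for Foxo1, -0.12 (-0.43 to 0.19) for Foxo3 and 0.16 (-0.14 to 0.46) for Murc, all with intervals that included 0. In CM5 the difference was -0.55 (-2.31 to 1.22) for Fbxo32, -0.20 (-0.68 to 0.27) for Trim63 and 0.38 (0.16 to 0.61) for Trim55. In CM4 it was -0.47 (-0.92 to -0.03) for Trim55, opposite in sign to CM1 and CM5, and -1.61 (-3.02 to -0.20) for Foxo3. These intervals are Wald limits from the 4 counts and cover counting error only. TMM scaling moved the CM1 ratios by 0.07 for the WT label and by -0.06 for the KO label, which lowered the CM1 differences. The CM1 intervals of Fbxo32 and Trim63 then included 0, while that of Trim55 stayed above it. The KO-Sham library enters each of these differences.

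The genes most alike to each member were found by Pearson correlation of log2(CPM + 10) over 12 sums, the 4 libraries by CM1, CM4 and CM5, among 4594 genes with 1000 or more UMIs. The sums of a library share its preparation and depth, so the values only describe. Fbxo32 was most like Ucp3, a mitochondrial uncoupling protein of muscle (0.971), and Abcc9 was also among the closest. Trim63 was closest to Tacc2, Arhgef3 and Osbpl8 (0.948 to 0.949), Trim54 to Myh7 (0.940), Psmd14, a proteasome subunit, and Tpm3, a tropomyosin. Trim55 was closest to Fyco1 (0.985), Pdzd2 and Sox6, and Murc to Creb5 (0.966), Ptbp2 and Spag9. Foxo3 was closest to Cep95 (0.944), Lysmd4 and Ncbp3, and Foxo1 to Smc3, Etl4 and Ptgfrn with lower values (0.753 to 0.766).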

How the data were processed

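Groups were taken from the sample titles, 1 library each. The authors deposited raw counts of UMIs per gene and nucleus, with the library, population and percent of mitochondrial UMIs of each nucleus; 12 further per-nucleus value columns among the deposited files stayed out of the work. According to the study's methods, Cell Ranger (version not stated) with the mm10/GRCm38 pre-mRNA reference made the counts, so intronic reads count; doublets called by Scrublet and nuclei outside the authors' limits on detected genes were removed, Seurat 3 was used, and clusters other than cardiomyocytes were dropped. Doublets were not called anew. The labels and the methods name different versions of the 10x 3′ kit. The labels give the strain with a final number that rises from sample to sample; C57BL/6 is the one in the treatment protocol.

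UMIs were summed per library and population and divided by their total (CPM). Intervals were exact Poisson (CPM), Clopper-Pearson (shares) and conditional binomial (ratios) 95% limits. A ratio was called past 1.5-fold for genes whose sums together held at least 20 UMIs. Named are the 7 members, Nfe2l1, the highest or lowest gene of each list among those whose sums together held at least 50 UMIs, and the 3 genes most like each member; some genes that this rule names are not reported here. Members and lists were chosen with earlier results of these data known. Cavin4 was matched to Murc as a RefSeq synonym. Positions are from GENCODE M21. Alternatives used TMM factors (edgeR 4.0.16, R 4.3.3), other totals, thinning and subsets of nuclei. Python 3.11.15, numpy 2.4.6, scipy 1.17.1, pandas 2.3.3 and matplotlib 3.10.9 were used. The steps were tested on simulated data before use.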

Additional observations from a re-analysis of the deposited data

Results flagged for a closer look

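Trim55 and Foxo3 had ratios of opposite sign, each with a counting interval clear of 0, in groups that were compared in the same way. Each group is 1 library, the differences were not tested, and the cause was not tested.

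For Trim55 in CM1, MI over Sham was at 0.28 for the KO label and -0.10 for the WT label, a difference of 0.38 on the log2 scale; in the same 4 counts, KO over WT was at 0.09 after MI and -0.29 after Sham, with the same difference of 0.38. In KO-MI over KO-Sham, Trim55 was at 0.28 in CM1 and 0.22 in CM2 but at -0.79 in CM4 and -0.82 in CM5. The differences were 1.06 for CM1 less CM4, 1.10 for CM1 less CM5, 1.01 for CM2 less CM4 and 1.05 for CM2 less CM5. In KO-Sham over WT-Sham, Trim55 was at -0.29 in CM1 and -0.42 in CM5 and at 0.62 in CM4. The differences were -0.91 for CM1 less CM4 and 1.04 for CM4 less CM5. In the same comparison Foxo3 was at -0.25 in CM1 and 1.24 in CM4, a difference of -1.49, from 48 and 11 UMIs in CM4. The populations were defined from expression in the same nuclei.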

How the results depend on the processing

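No paired analysis was possible because each group is 1 library. Of 196 recomputed log2 ratios of the members in CM1, 166 stayed within the counting interval of the reported value, 29 moved outside it and 1 changed sign from a value past 1.5-fold: Trim54 in KO-Sham over WT-Sham, 0.39 in nuclei with under 5% mitochondrial UMIs, where KO-Sham kept 130 nuclei. Smaller values included, 15 ratios changed sign. For MI over Sham, the count of 2 members past 1.5-fold kept within 1.5 times under every alternative run, in both labels, but the genes varied. With under 5% mitochondrial UMIs, Trim54 was at 0.55 and Murc at 0.79 for the KO label. In those nuclei Foxo1, at -0.62, was also past 1.5-fold for the WT label. The count for KO-MI over WT-MI was 1, Trim54 at -0.84, after thinning to 1000 UMIs. That for KO-Sham over WT-Sham was 0 with TMM scaling, 0 after thinning and 0 in nuclei without myeloid markers. FoxO targets lower in KO-MI over KO-Sham numbered 7 over all nuclei. The cause was not tested. The alternatives for FoxO targets and the nuclei without myeloid markers were chosen after seeing the data. Requiring no UMI of any other cell type left no CM1 nucleus in 3 libraries and gave no value. Depth limits Trim54 and most members in CM2, CM4 and CM5. Trim55 had 120 or more UMIs in each library of these populations.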
